A study of Mus musculus with 16 samples.

Results

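U6 is the small nuclear RNA (snRNA) at the catalytic centre of the spliceosome, and the mouse genome carries many annotated copies of its gene. The intervals described here were those of the deposited count tables that matched, by exact coordinates, a GENCODE M21 gene of type snRNA within a few bases of the length of U6; those found were 100 to 111 bases long. Of 847 annotated genes of this length, 248 were listed, among 1885 intervals in all and 375 snRNA intervals. They held 14923 counts over 16 libraries, which was 0.00476% of all counts and 1.27% of snRNA counts. The 54 intervals with at least 100 counts held 77.1% of the counts, and 194 intervals had fewer than 100.

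Wild-type mice gave the sorted bone marrow cells, in 8 populations of 2 libraries each. The 4 progenitor populations were CLP (lymphoid), CMP (myeloid), GMP (granulocytes and monocytes) and MEP (megakaryocytes and red cells), and the mature cells were B, T, Myeloid (spelled Myloid in the labels) and Erythroid. No genetic change, treatment, age or strain beyond wild type is given, and cells were sorted with antibodies to a lineage cocktail and to stem and progenitor surface proteins. Gel selection kept fragments of the length of small nucleolar RNAs (snoRNAs) with their adaptors, and the RNA was total RNA.

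The library with the fewest counts, CMP library 1, had 8197458 and that with the most, CLP library 2, had 41799906, and the U6-length intervals held 190 (T library 1) to 2524 (CLP library 2) of them. The CMP libraries were not independent by their counts: in none of 906 intervals listed in CMP library 1 was its count above that of library 2, whereas in the other 7 populations the smaller library was above the larger in 129 to 400 intervals. All 282 intervals with at most 4 counts in CMP library 1 were also listed in library 2, while 25.5% to 46.0% of such intervals were at 0 in the larger library elsewhere. CMP was therefore counted as 1 sample in the description of levels, with no SD. The main fit used all 16 libraries and took those of CMP as independent, so its p-values count CMP as 2 samples. Most counts of calls and some single results are given also without CMP library 1. In the marker check, the lymphocyte miRNA Mir150 was highest in T (272 ± 18.2 counts per 1000000, CPM, scaled by edgeR's trimmed mean of M values, TMM; SD, n = 2) and B (81.8 ± 10.4), and the granulocyte miRNA Mir223 in Myeloid (921 ± 36.3). The erythroid miRNA Mir451a was high in MEP (152 ± 39.7) and Erythroid (147 ± 46.9) but also in CLP (127 ± 6.47). Other markers were less clear. The lymphocyte miRNA Mir342 had 63.7 CPM in T but 16.2 in B and 18.2 in Myeloid. Mir155, taken as a B marker, had 12.4 in T and 5.84 in B. Of the T markers, Mir181a-1 and Mir181a-2 were highest in T (106 and 96.8), but Mir181b-1 and Mir181b-2 in CMP (17.0 and 20.2). Of the progenitor markers, Mir99a, Mir125b-1 and Mir126a were highest in CMP (16.4, 1.89 and 18.2), but Mir125a in T (1.42). The summed markers of cells outside blood ran from 3.38 to 20.0 CPM and were mostly the endothelial and progenitor miRNA Mir126a.

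U6 is made by RNA polymerase III, whose transcripts end in a run of T in the coding strand, and its promoter lies upstream of the transcribed part, so that most copies inserted elsewhere in the genome carry no promoter of their own. In the spliceosome U6 first pairs with U4 and then with U2, and its conserved ACAGAGA box binds the start of the intron. U6 is expressed in every cell type and is often used as a reference when small RNAs are measured by PCR. For these reasons both the copies that are listed and the differences in level between blood populations are shown here in detail.

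Annotated sequences were compared on GENCODE M21 and GRCm38. Of the 2 intervals with the most counts, Gm26243 differed from Rnu6 at 1 base and Gm23712 at 3, and Gm23712 keeps the run of T at its 3′ end. Gm23057, also among the most counted, had 9 differences from Rnu6, and the less counted Gm24018 had 7, and both end in a run of A.

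Which copies were listed followed their likeness to Rnu6. All 43 annotated genes with the sequence of Rnu6 were listed, each with at least 100 counts, and together they held 7866 counts, 52.7% of the total. Of the 67 genes with 98% to under 100% identity, 66 were listed (3969 counts). The share listed was 78.4% of 74 genes at 95% to 98%, 39.3% of 122 at 90% to 95% and 13.2% of 189 at 80% to 90%. Below 80% identity only 8 of 351 genes were listed, with 78 counts in all. The median identity to Rnu6 was 97.2% for listed and 77.6% for unlisted genes. Because bases are shared among these genes, a read from one can be counted at another, so the listing of a copy does not show that the copy itself is transcribed.

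The ACAGAGA box was present on the annotated strand in 224 of 248 listed intervals (90.3%) and in all 54 with at least 100 counts. Among unlisted genes 297 of 598 had it (49.7%), and among all 846 genes of this length with a sequence 521 did (61.6%). Its reverse complement was in 0 of the listed intervals. Most listed intervals, 215 of 248, were 107 bases long like Rnu6. Their last 5 bases were TTTTT in 193 intervals (81.9% of the counts), TTTTG in 4 (9.85%), AAAAA in 13 (4.44%) and other letters in 38 (3.83%). Of the annotated genes, 193 of 395 ending in TTTTT, 13 of 18 ending in AAAAA and 4 of 17 ending in TTTTG were listed, against 38 of 416 with other ends. These groups by 3′ end were formed after the values had been seen.

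By position in the annotation, 152 listed intervals were intergenic (8235 counts), 54 lay in an intron of a gene on the other strand (4051), 36 in an intron on the same strand (2607) and 6 in an exon (30). The share of genes listed was 31.7% between genes, 26.6% in antisense introns and 23.5% in sense introns. Among the 43 copies identical to Rnu6, the median count was 158 for 20 intergenic copies, 156 for 8 in sense introns and 194 for 15 in antisense introns. These medians are a description, with no test. The files do not say how strand was treated in counting, so reads of a host transcript cannot be told apart from those of a copy.

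**Figure D1:**
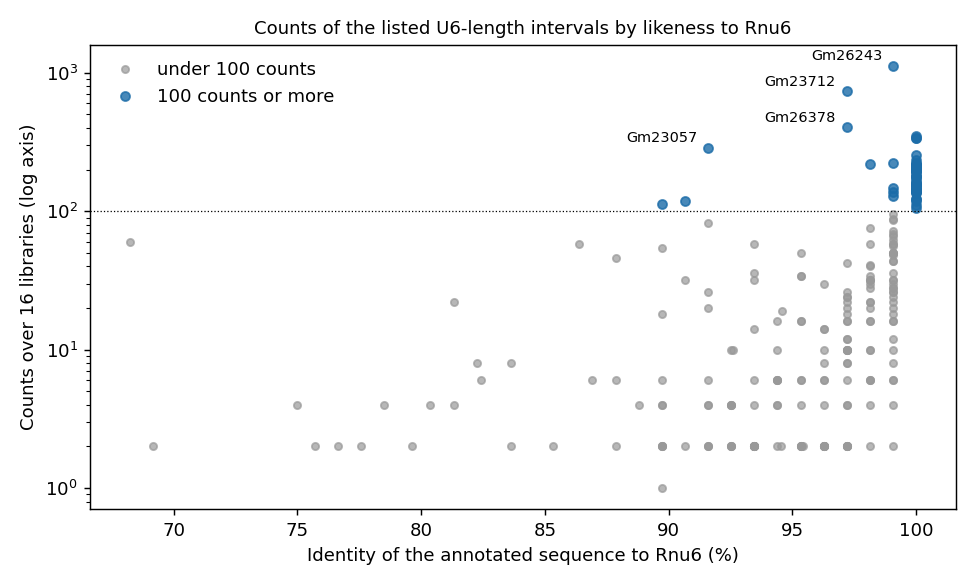
Counts over the 16 libraries (log axis) of each listed U6-length interval against the identity of its annotated sequence to Rnu6 in percent. Blue points had at least 100 counts and grey points fewer, with the dotted line at 100. The column at 100% holds the 43 copies with the sequence of Rnu6, and only Gm26243, Gm23712 and Gm26378 lie above all of them.

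Identical copies did not have identical counts. The 43 copies of the Rnu6 sequence ran from 106 counts at Gm24753 to 350 at Gm24967, an antisense-intronic copy in Tut4, with a median of 176, and the locus annotated as Rnu6 itself had 154. On read pairs the variance of these totals was 8.75 times their mean. The spread was larger among the 4 copies that share the sequence of Gm26243: Gm26243 had 1124 counts, Gm23296 had 222, Gm24859 had 66 and Gm24019 had 58. Counts at single copies are thus uncertain, since nothing within their 107 bases tells them apart, and the sums over copies are the firmer values. The 248 intervals had 189 distinct sequences, 179 of them with 1 listed interval.

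After the 43 identical copies, 11 intervals with at least 100 counts remained. Gm26243 (1124), Gm23712 (734, in an intron of Corin) and Gm26378 (404) had the most counts of all, followed by the identical copies Gm24967 (350), Gm24803 (338) and Gm25256 (336), then Gm23057 (288) and the identical copies Gm26317 (254), Gm25064 (234) and Gm25737 (224). Just inside the limit of 100 counts lay Gm24753 (106 counts), Gm24486 (110) and Gm24492, and just outside it Gm22969 (96), Gm24182 (88) and Gm22363 (86). At the low end, 52 intervals had at most 2 counts, and the median interval had 16. Counts were almost always even (99.7% of non-zero values), so that 2 counts are 1 read pair.

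B and T cells had the lowest U6-length levels of the 8 populations. Summed over all 248 intervals, the level was 20.0 and 18.9 TMM-scaled CPM in the B libraries and 18.4 and 21.4 in T. It was 54.5 and 54.8 in CLP, 54.9 and 55.4 in GMP, 53.3 and 57.8 in MEP, and 56.4 and 61.5 in Erythroid. Myeloid had 46.0 and 48.6, and CMP 37.7 and 39.1. No library of B or T came near those of the other 6 populations, while CLP, GMP, MEP and Erythroid lay close together. In order the means were 59.0 ± 3.58 in Erythroid, 55.6 ± 3.24 in MEP, 55.2 ± 0.393 in GMP, 54.7 ± 0.178 in CLP, 47.3 ± 1.85 in Myeloid, 38.4 in CMP, 19.9 ± 2.13 in T and 19.5 ± 0.789 in B (SD, n = 2; CMP n = 1). Neighbours in this order whose libraries overlapped were Erythroid with MEP, MEP with GMP, and T with B, while the GMP libraries lay just above those of CLP. The means are descriptions, with no test. Nothing in the labels says that the 2 libraries of a population came from separate animals, so the spread may be technical.

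The same split was seen without TMM scaling. As CPM of the unscaled library total, the sum was 16.9 (95% exact interval 14.5 to 19.7, on read pairs) and 15.2 (12.6 to 18.2) in B, and 14.9 (12.1 to 18.3) and 16.4 (13.9 to 19.2) in T. CLP had 60.0 (55.3 to 64.9) and 60.4 (57.1 to 63.8), and CMP library 2 had 44.5 (40.5 to 48.8). These intervals cover counting error only. TMM factors were 0.765 to 0.844 in B and T and 0.965 to 1.17 elsewhere, so that scaling narrowed the gap: the log2 difference between CLP and the mean of B and T was 1.48 with TMM (2.78-fold) and 1.92 with library totals.

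**Figure D2:**
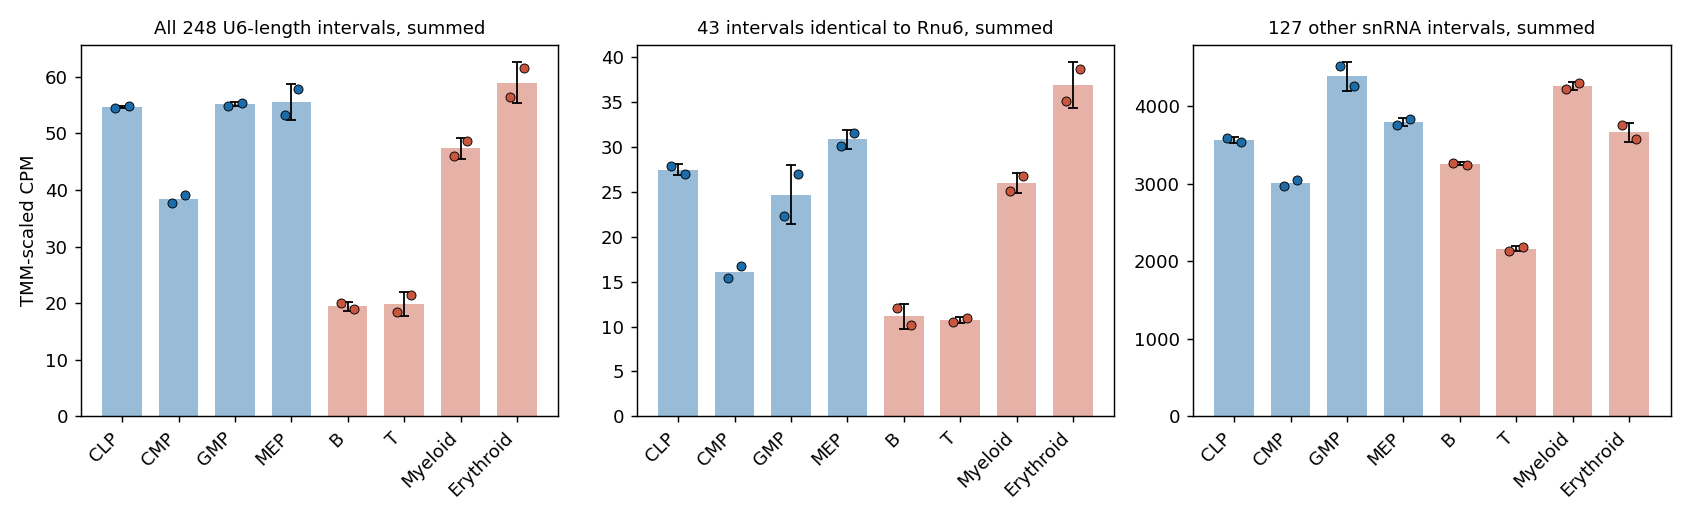
TMM-scaled CPM in each population for the sum of all 248 U6-length intervals, of the 43 identical to Rnu6, and of the 127 other snRNA intervals. Points are libraries, bars their mean and error bars the SD (n = 2, none for CMP, counted as 1 sample), with progenitors blue and mature cells red. B and T are lowest in the first 2 panels, and in the third only T lies clearly below the rest.

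In B cells the summed level of the other snRNAs stood nearer to CLP than that of the U6-length intervals did. As a share of the CLP mean, the U6-length sum stood at 35.6% in B and 36.4% in T, and the 127 other snRNA intervals at 91.3% in B and 60.6% in T. By length class, B stood at 96.8% for intervals of U1 length (42 intervals; U1 marks the start of introns), 79.3% for U2 length (24; U2 binds the branch site), 96.0% for U4 length (7; U4 carries U6 into the spliceosome) and 126% for U5 length (14; U5 holds the exons). T stood at 59.6%, 62.0%, 74.0% and 55.7% for the same classes. The U6-length share of all snRNA counts, which no scaling factor touches, was 0.608% and 0.579% in B, 0.853% and 0.969% in T, and 1.08% to 1.69% in the other 6 populations. This difference between classes was not tested. The sums rest mostly on the most counted classes, as U2 length held 598211 and U1 length 213974 of the 1160748 other snRNA counts. Over single tested intervals the gap was smaller. The median log2 difference between CLP and the mean of B and T was 1.02 for other snRNAs and 1.58 for U6-length intervals.

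**Figure D3:**
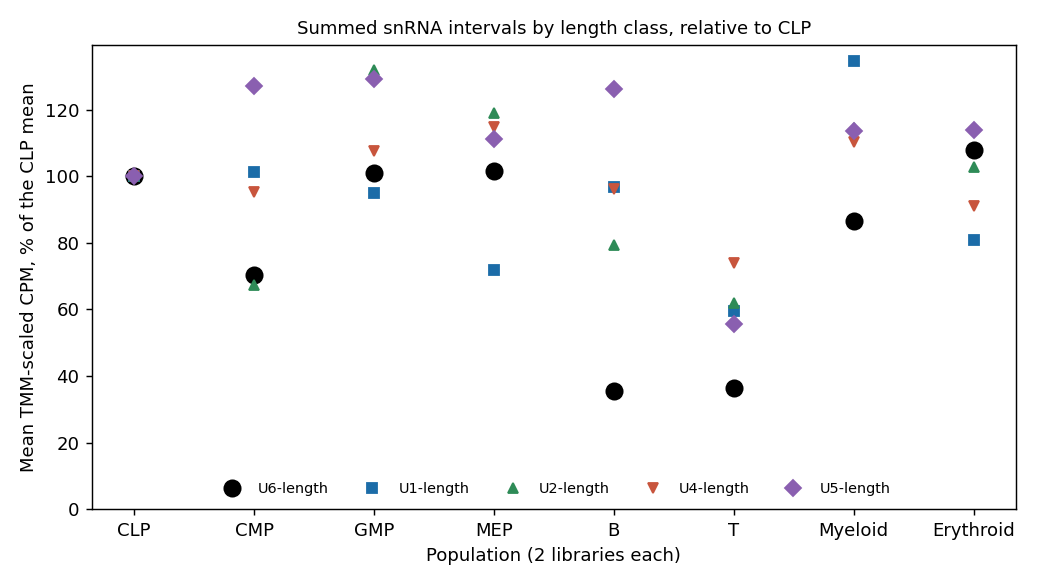
Mean TMM-scaled CPM (2 libraries per population, those of CMP not independent) of summed snRNA intervals by length class, in percent of the CLP mean. The black U6-length points lie at 35.6% in B, where the U1, U2, U4 and U5 classes lie at 79.3% to 126%, and at 36.4% in T, where those classes lie at 55.7% to 74.0%.

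The copies identical to Rnu6 and the rest did not have the same order of populations. The 43 identical copies were highest in Erythroid (35.1 and 38.7 CPM) and MEP (30.1 and 31.6), then CLP (27.9 and 27.0), Myeloid (25.1 and 26.7) and GMP (22.3 and 27.0). They were at 15.4 and 16.8 in CMP, 12.1 and 10.2 in B and 10.5 and 10.9 in T. The 205 other intervals were highest in GMP (32.5 and 28.4) and CLP (26.7 and 27.8), with 21.3 and 22.8 in Erythroid, 20.9 and 21.9 in Myeloid and 22.3 and 22.4 in CMP. B (7.94 and 8.76) and T (7.94 and 10.5) were lowest in both groups. Members ending in AAAAA, 662 counts in all, had 3.40 and 2.66 CPM in GMP, 2.56 and 2.39 in CLP, 2.05 and 1.70 in Erythroid, 1.56 and 1.84 in Myeloid, 1.07 and 0.938 in B and 1.16 and 1.29 in T. Their log2 difference between GMP and Myeloid was 0.83, against 0.15 for members ending in TTTTT and 0.23 for those ending in TTTTG. It was 0.87 for members with other ends, so it was not particular to those ending in AAAAA. The 4 copies of the Gm26243 sequence stood at 27.6% of CLP in B and 25.4% in T, and between 85.7% and 107% in the others.

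Erythroid markers lay in a like order. Mir451a and Mir144, both listed, summed to 127 to 187 CPM in MEP, 114 to 184 in Erythroid, 124 to 134 in CLP and 67.4 to 119 in GMP. They summed to 45.9 to 50.2 in Myeloid, 37.5 to 38.5 in CMP, 30.2 to 37.8 in T and at most 12.7 in B. The part of red-cell RNA in the U6-length level was not tested. In such bulk samples, fewer cells of a type and less RNA per cell cannot be told apart.

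The design first implies a comparison of each progenitor with its mature descendants. In the lymphoid branch, CLP against the mean of B and T, 22 of 56 tested U6-length intervals were higher in CLP and 0 were lower (39.3%, where 25.2% of all 749 tested features were higher; edgeR's quasi-likelihood test, Benjamini-Hochberg adjusted p under 0.05). The median log2 difference was 1.58, or 1.35 with populations under 3 read pairs (6 counts over both libraries) set to 3 pairs, against 0.13 over all tested features, and 54 of 56 lay above 0. Of the 56 intervals, 43 were copies of Rnu6 whose annotated bases do not tell their reads apart, and 15 of these copies were higher. The median and the counts of intervals, here and in the comparisons below, are thus not of 56 separate RNAs. Tested intervals were those that passed a filter on low counts, which left 192 of the 248 untested, so these shares describe the more abundant ones. Without CMP library 1 the count was 17 of 68, with 21.7% of features higher, and it fell to 8 without CLP library 1 and 11 without CLP library 2.

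Gm26243 had 3.53 and 5.12 CPM in CLP, 1.42 and 1.09 in B and 1.16 and 1.01 in T. Both CLP libraries were above all 4 libraries of B and T, and the log2 difference was 1.89 ± 0.282 (SE, adjusted p = 0.000229 by edgeR). Gm23712 had 3.80 and 2.87 in CLP, 1.07 and 1.09 in B and 0.387 and 1.44 in T, a difference of 1.70 ± 0.376 (adjusted p = 0.00362 by edgeR). The groups again did not overlap.

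At the top of the called intervals stood Gm22580, a copy identical to Rnu6 in an intron of Dmd, with 0.706 and 0.521 CPM in CLP, 0 and 0.156 in B and 0 in both T libraries (fitted log2 4.82, adjusted p = 0.0121 by edgeR). Gm23629 had 0.794 and 0.564 in CLP, 0 in both B libraries and 0 and 0.431 in T (4.12, adjusted p = 0.0142 by edgeR). Gm23057, the A-ended copy, had 0.971 and 0.912 in CLP, 0.237 and 0.782 in B and 0 in both T libraries (4.09, adjusted p = 0.00153 by edgeR). These 3 fitted values rest on a population at 0 and are no bounds, and with populations under 3 read pairs set to 3 pairs they were 1.46, 1.60 and 1.41. Gm22580 and Gm23629 did not pass without CLP library 1 (adjusted p = 0.0528 and 0.0753 by edgeR). The smallest called differences were those of Gm26378 (1.11), the identical copy Gm25405 (1.46) and the identical copy Gm24803 (1.57). Gm26378 and Gm25405 did not pass without CMP library 1 (adjusted p = 0.0634 and 0.0668 by edgeR), and none of the 3 passed without either CLP library (adjusted p up to 0.218, 0.299 and 0.176 over all libraries left out in turn). The locus Rnu6 itself had a difference of 1.18 that did not pass (adjusted p = 0.202 by edgeR).

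**Figure D4:**
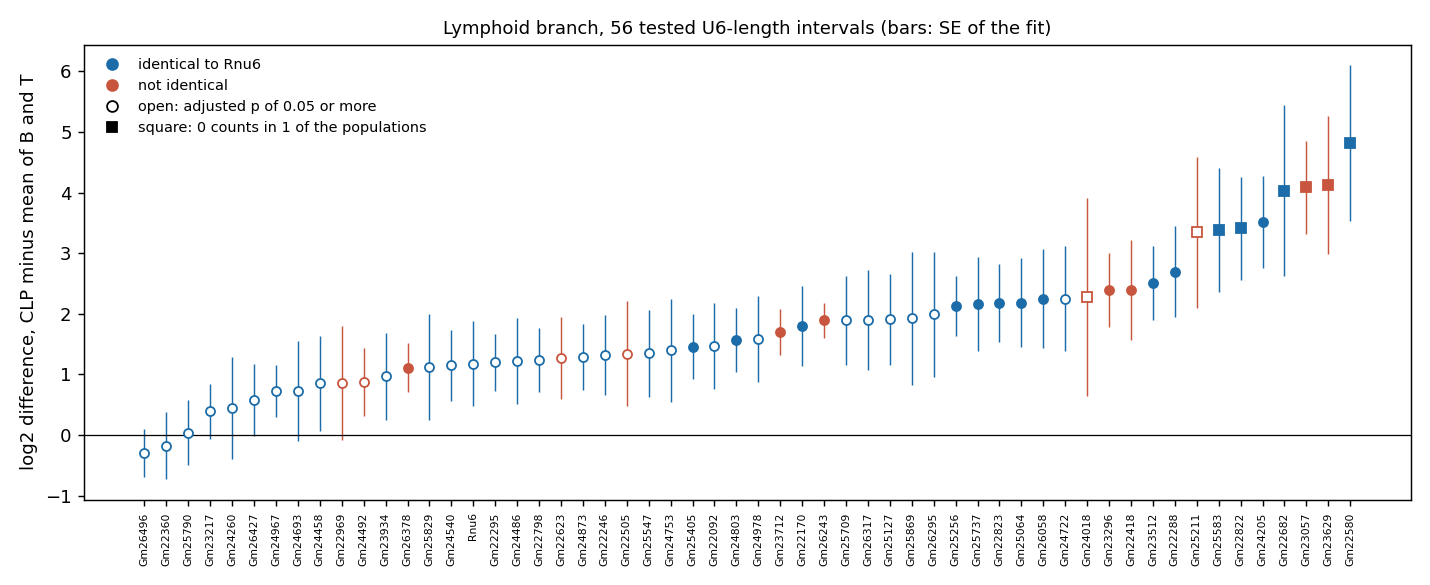
Fitted log2 difference between CLP and the mean of B and T for each of the 56 tested U6-length intervals, in order of size, with the SE of the fit. Blue marks are copies identical to Rnu6, red marks other sequences, filled marks passed the adjusted p of 0.05, and squares had a population at 0 counts, where the fitted value is no bound. Of 56 points, 54 lie above 0, but 43 of the 56 share the sequence of Rnu6 and are not separate RNAs. The filled points include the abundant Gm26243 and Gm23712 with short error bars.

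Since the annotated bases of identical copies do not tell their reads apart, intervals of identical sequence were also summed into 1 feature before the fit. This choice was made after seeing the data. In CLP the summed copies of Rnu6 exceeded the mean of B and T by 1.35 ± 0.125 on the log2 scale (2.55-fold, adjusted p = 4.24e-06 by edgeR, and 1.80e-05 without CMP library 1). Both CLP libraries were above all 4 libraries of B and T. Of 16 U6-length sequences tested in this way 10 were higher in CLP and 0 lower, where 42.7% of all 667 features passed in either direction.

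In the granulocyte-monocyte branch no U6-length interval was called between GMP and Myeloid, where 16.3% of features were higher and 15.5% lower. The count was 0 of 56 by edgeR and 0 by DESeq2, with 1 at an unadjusted p under 0.05. The median difference was -0.05. Single differences had wide SEs, such as 1.06 ± 0.498 for Gm23057 and -0.96 ± 0.934 for Gm26317, so changes of that size could be missed. The summed copies of Rnu6 differed by -0.05 ± 0.148 (adjusted p = 0.856 by edgeR), and the libraries of GMP (22.3 and 27.0 CPM) overlapped those of Myeloid (25.1 and 26.7). The sum of all intervals was higher in both GMP libraries than in both Myeloid libraries, by 0.22 ± 0.080 on the log2 scale. Its SE pools the replicate variance of all populations but CMP. For the sum of intervals not identical to Rnu6 the difference was 0.51.

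Nor was any interval called in the megakaryocyte-erythroid branch, MEP against Erythroid, where 5.47% of features were higher and 4.41% lower. The count was 0 of 56 by edgeR and 0 by DESeq2, with 2 at an unadjusted p under 0.05. The summed copies of Rnu6 were lower in both MEP libraries than in both Erythroid libraries, a difference of -0.31 ± 0.148 that did not pass (adjusted p = 0.268 by edgeR). The sum of all intervals differed by -0.09 ± 0.080 (SE, replicate variance pooled over all populations but CMP). The MEP libraries (53.3 and 57.8 CPM) overlapped those of Erythroid (56.4 and 61.5).

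The lymphoid difference was larger than those of the other branches for the summed copies of Rnu6. The lymphoid minus granulocyte-monocyte difference was 1.40 ± 0.196 (adjusted p = 0.000768 by edgeR) and the lymphoid minus megakaryocyte-erythroid difference 1.66 ± 0.196 (adjusted p = 0.000175 by edgeR). They were 1.39 and 1.58 without CMP library 1. Among single intervals, 2 of 56 passed the first test (9.08% of features higher), Gm26243 and Gm22822, and 18 had an unadjusted p under 0.05. In the second test 8 of 56 passed (11.9% of features higher). None passed with a negative sign, where 8.81% and 9.48% of features were lower. Without CMP library 1 the counts were 2 and 5.

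Between the 4 progenitor and the 4 mature populations, 11 of 56 U6-length intervals were higher in progenitors and 0 lower (19.6%, where 26.7% of features were higher and 23.1% lower), so the share was below that of all features. Some of the 11, named below, passed the low-count filter only through progenitor libraries. The median difference was 0.54, or 0.49 with populations under 3 read pairs set to 3 pairs, against 0.07 over all features. Since Myeloid and Erythroid lay close to their progenitors, the summed level of progenitor libraries (lowest 37.7, median 54.7, highest 57.8 CPM) overlapped that of mature libraries (18.4, 33.7 and 61.5). The p-values of this comparison rest on the spread between libraries of a population, not between the populations of a stage. With populations summed and compared 4 against 4, no interval passed by edgeR. Without CMP library 1, 9 of 68 were higher, where 22.0% of features were.

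Gm26243 was higher in progenitors by 0.96 ± 0.169 (adjusted p = 0.000654 by edgeR), with a lowest, median and highest level of 2.98, 3.84 and 5.12 CPM in progenitor libraries and 1.01, 1.86 and 4.21 in mature libraries. The 2 A-ended copies that were called had the largest fitted differences, 2.55 for Gm23057 (adjusted p = 0.000407 by edgeR) and 2.55 for Gm24018 (adjusted p = 0.0314 by edgeR), both with a population at 0. With populations under 3 read pairs set to 3 pairs they were 1.21 and 0.82, so the fitted sizes are no bounds. Gm24018 then lay below Gm25256 (1.13) and Gm25064 (1.14), so its rank was not kept. Gm23057 had 1.63 and 1.78 CPM in GMP, 1.08 and 1.63 in MEP, 1.04 and 0.957 in CMP, 0.782 and 0.845 in Myeloid and 0.965 and 0.501 in Erythroid. The low-count filter kept Gm24018, with 58 counts in all, only through progenitor libraries, CMP library 1 (6 counts) and GMP library 1 (10 counts). Its call is therefore no support for a higher level in progenitors. It was at 0 in both B libraries. It did not pass without CMP library 1 (adjusted p = 0.0618 by edgeR), nor in 8 of 16 fits that left out 1 library, this one included. Gm25211, which differs from Rnu6 at 1 base, was at a fitted 2.23 (adjusted p = 0.0144 by edgeR), with T at 0, and at 0.77 with populations under 3 read pairs set to 3 pairs. It was highest in GMP at 1.23 and 1.65 CPM. Gm25211 and Gm22505, also called, reached the level of the low-count filter in too few mature libraries to pass by them. Gm22823 reached it in none, so the filter kept these intervals only through progenitor libraries. Their calls are likewise no support for a higher level in progenitors. The smallest differences called beside Gm26243 were those of the identical copies Gm25256 (1.11) and Gm22823 (1.18, not passed without CMP library 1, adjusted p = 0.0601 by edgeR). The summed copies of Rnu6 differed by 0.36 ± 0.075 (1.29-fold, adjusted p = 0.00161 by edgeR), a smaller step than that of the lymphoid branch. Without CMP library 1 this difference was 0.37. With populations summed and compared 4 against 4 it did not pass (adjusted p = 0.775 by edgeR). For these copies both Erythroid libraries (35.1 and 38.7 CPM) lay above every progenitor library, so the step was not one of all mature populations.

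**Figure D5:**
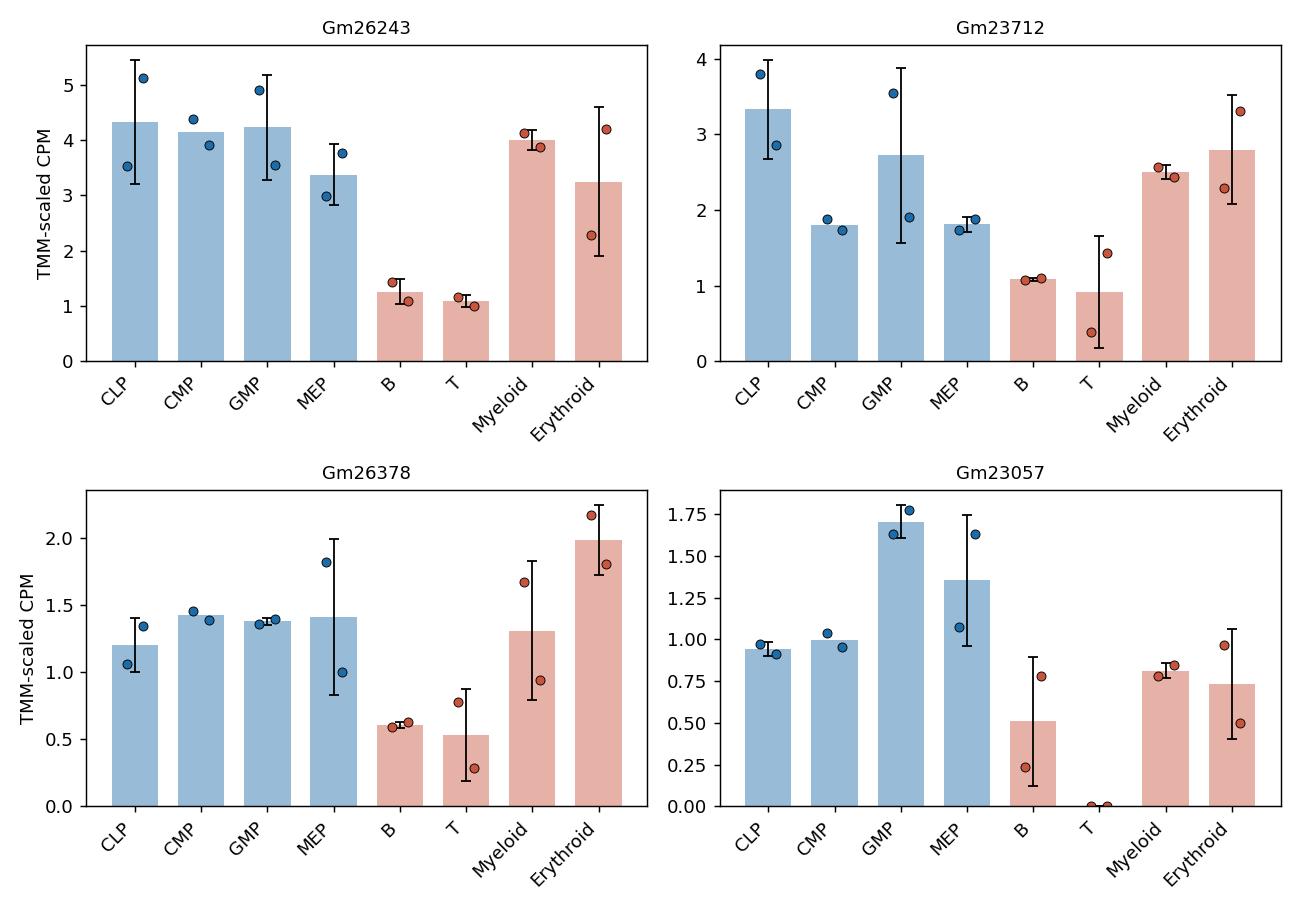
TMM-scaled CPM by population of Gm26243, Gm23712, Gm26378 and Gm23057, 4 of the most counted intervals that are not identical to Rnu6. Points are libraries, bars means and error bars the SD (n = 2, none for CMP), with progenitors blue and mature cells red. Gm26243 lies between 1.01 and 1.42 in the B and T libraries and above 2.2 in all others, and Gm23057 is at 0 in both T libraries.

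T cells against the other 7 populations gave 16 of 56 intervals lower and 0 higher (28.6%, where 29.5% of features were lower and 18.3% higher), a share near that of all features. The median was -1.30, or -0.95 with populations under 3 read pairs set to 3 pairs, against -0.22 over all features. The summed copies of Rnu6 were lower in T by 1.11 ± 0.126 on the log2 scale (2.16-fold, adjusted p = 1.85e-05 by edgeR). The log2 difference was -1.06 without CMP library 1. But the B libraries (12.1 and 10.2 CPM) overlapped those of T (10.5 and 10.9). The T libraries thus lay below those of the other 6 populations but not below those of B. Without CMP library 1, 14 of 68 were lower (26.6% of features), and the count was 10 with RLE size factors and 4 without T library 2.

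Of the 16 called intervals 6 were at 0 in both T libraries. With T set to 3 read pairs over its 2 libraries, Gm23057 was 4.07-fold lower in T than the mean of the other 7 populations and Gm25211 2.21-fold. In the same way Gm22580 was 2.11-fold lower, Gm22682 2.05-fold, Gm22822 1.79-fold and Gm25583 1.65-fold. These intervals were picked for their 0 counts in T, so the folds are no bounds. Gm25211 and Gm22682 did not pass without either T library (adjusted p = 0.0586 and 0.107 by edgeR without T library 1, and 0.110 and 0.194 without T library 2). Nor did Gm25211 without B library 2 or Gm22682 without B library 1 (adjusted p = 1.00 by edgeR in both fits), and Gm22682 was lost also without CLP library 1 (0.0613) or Myeloid library 2 (0.0532). Apart from Gm23057 and Gm25211 these are copies identical to Rnu6, whose annotated bases do not tell their reads apart. For them the summed copies of Rnu6, 2.16-fold lower in T, are the firmer value. The smallest called differences were those of Gm23712 (-1.18), Gm26378 (-1.30) and Gm26243 (-1.61). Gm23712 was at 0.387 CPM in T library 1 but at 1.44 in T library 2, above both B libraries. Without T library 1 its difference was -0.71 and did not pass (adjusted p = 0.210 by edgeR). Without T library 2 that of Gm26378 was -0.54 (adjusted p = 0.490 by edgeR). Neither passed without CLP library 1 or B library 1 (adjusted p = 0.0739 to 0.0780 and 0.0726 to 0.0760 by edgeR).

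Over all 8 populations at once, 16 of 56 intervals varied (28.6%), where 61.1% of all features did, and without CMP library 1 only 4 of 68 did, where 47.5% of features did. The smallest p-values were those of Gm26243 (adjusted p = 0.00240 by edgeR), Gm23057 (0.00494), Gm25256 (0.0156), Gm25790 (0.0232) and Gm22822 (0.0238). Gm25256, Gm25790 and Gm22822 are copies identical to Rnu6, whose single counts are uncertain. Gm25790 was unlike the others in its profile, with 2.05 and 1.60 CPM in Erythroid and at most 0.994 in any other library. The summed copies of Rnu6 were also highest in Erythroid (35.1 and 38.7 CPM), so this is not a trait of that copy alone. Gm25790 and Gm22822 did not pass without CMP library 1 (adjusted p = 0.0605 and 0.0601 by edgeR), with adjusted p up to 0.194 and 0.123 over all libraries left out in turn. The summed copies of Rnu6 varied with an adjusted p of 7.71e-06 by edgeR.

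Among the other 62 tested snRNA intervals most calls ran in the same directions. In the lymphoid branch 41 of 62 were higher in CLP and 0 lower, and in T against the rest 49 were lower and 0 higher. Between progenitors and mature cells 36 were higher and 1 lower. Some were also called in the granulocyte-monocyte branch, 18 higher and 9 lower, and in the megakaryocyte-erythroid branch, 5 higher and 4 lower. The other snRNA intervals had far more counts (1160748 against 14923), so the counts of calls cannot be compared directly. Their median log2 difference was 1.02 in the lymphoid branch (U6-length intervals 1.58) and -0.89 in T against the rest (-1.30). Between progenitors and mature cells it was 0.46 (0.54). It was 0.28 in the granulocyte-monocyte branch (-0.05) and 0.16 in the megakaryocyte-erythroid branch (-0.12).

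The snoRNAs known to guide chemical modification of U6 were looked at as the nearest partners. Of 6 on the list, 4 were matched to a listed interval, by GENCODE name or, for Snord94 (listed as Gm22486), by RefSeq position. In the lymphoid branch 1 of 4 was higher and 3 lower in CLP: Snord7, which guides a methylation of U6, by 1.13 ± 0.399 (adjusted p = 0.0409 by edgeR), and Snord8 by -1.06 ± 0.257 (0.00640), Snord94 by -0.82 ± 0.249 (0.0209) and Snord67 by -0.64 ± 0.144 (0.00390). Snord7 had 0.581 and 0.575 CPM in T and 0.625 to 2.47 in the others. Snord8 was highest in B, at 11.1 and 12.5 CPM, one of the 2 populations with the lowest U6-length sums. In T against the rest Snord7 was lower (-1.29, adjusted p = 0.0317 by edgeR) and Snord94 higher (0.74, adjusted p = 0.00997 by edgeR).

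Other RNAs made by RNA polymerase III were lower in T where they were called. Of 9 on the list, 6 were listed and tested. In the lymphoid branch Rn7sk, the 7SK RNA that holds the elongation factor P-TEFb, was higher in CLP by 0.73 ± 0.082 (adjusted p = 2.37e-05 by edgeR) and the Y RNA Rny3 by 0.81 ± 0.220 (0.0122), while Rny1, Rn7s1, Rn7s2 and Vaultrc5 did not pass. Rn7sk had 78.5 and 77.3 CPM in B and 40.7 and 38.1 in T, against 91.8 and 92.3 in CLP, so that in B it lay far closer to CLP than the U6-length sum did. In T against the rest Rn7sk (-1.20), Rny1 (-0.70) and Rn7s2 (-0.47), a copy of the signal recognition particle RNA, were lower and none of the 6 was higher.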

How the data were processed

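Small RNAs of sorted mouse bone marrow cells were sequenced in 16 libraries. Per the labels' protocols, total RNA was made into libraries with a small RNA kit and selected by size on a gel, and per the submitters' processing notes Trimmomatic 0.38 and Bowtie2 2.3.4.1 and the build GRCm38 were used. The counting program, annotation, strand and treatment of reads that fit several places are not given in the sources used here. The authors deposited raw counts per interval, with intervals at 0 left out.

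Intervals were matched by exact coordinates to GENCODE M21. Counts were tested with edgeR 4.0.16 (quasi-likelihood test, filterByExpr with a minimum count of 10, TMM, 749 features, 8 residual degrees of freedom), with Benjamini-Hochberg adjustment over all features and a threshold of 0.05. SE is the log2 difference divided by the square root of F. CPM values use TMM-scaled library sizes. Summed levels have no test, and their SD comes from the replicates. The SE of a log2 difference of summed levels pools the replicate variance of all populations but CMP. Identity to Rnu6 was taken from global alignments with Biopython 1.88. The sequences of single copies are not reported here. Populations under 3 read pairs (6 counts) over their 2 libraries were set to 3 pairs where stated. Length classes of other snRNAs were set by hand around the lengths of those RNAs. The test was checked on simulated counts for the progenitor comparison (694 features): 100% of features changed by a log2 of 2 and 96.4% of those changed by 1 were called, and 2.58% of unchanged ones. The simulation gave every feature the same fixed dispersion, took the libraries as independent and covered features of all levels. It gives no detection rate for the low-count U6-length intervals or for the branch comparisons. The members and lists were chosen with earlier results of these data known. All members were accounted for by counts and ranges, and values are given for the 10 with the most counts, the 3 highest and 3 lowest called differences in each comparison, the 5 smallest p-values over all populations and the 3 intervals on either side of 100 counts. Alternatives were other scalings, DESeq2 1.42.0, no filter, halved counts, a replicate block, miRNAs left out and libraries left out.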

Additional observations from a re-analysis of the deposited data

Results flagged for a closer look

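The log2 difference of the lymphoid branch minus that of the granulocyte-monocyte branch was past the threshold of the test of the difference for Gm26243 (1.81 ± 0.428, adjusted p = 0.0134 by edgeR), Gm22822 (4.81, adjusted p = 0.0136) and the summed copies of Rnu6 (1.40, adjusted p = 0.000768). Gm22822 was at 0 in T, so its fitted value is no bound. With populations under 3 read pairs set to 3 pairs its difference was 2.13. Neither Gm26243 nor Gm22822 passed without CLP library 2 (adjusted p = 0.0967 and 0.0991 by edgeR) or Myeloid library 1 (0.0603 and 0.0512), nor did Gm26243 without GMP library 2 (0.0590) or Gm22822 without GMP library 1 (0.0504) or Myeloid library 2 (0.0565).

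The lymphoid branch minus the megakaryocyte-erythroid branch was past the threshold for Gm26243 (1.85 ± 0.432, adjusted p = 0.0102 by edgeR), Gm23712 (2.34, adjusted p = 0.0131), Gm24205 (3.30, adjusted p = 0.0455), Gm25547 (3.60, adjusted p = 0.0278) and the summed copies of Rnu6 (1.66, adjusted p = 0.000175). It was also past it for Gm23057 (3.20, adjusted p = 0.0495), Gm22822 (3.79, adjusted p = 0.0292), Gm25583 (5.18, adjusted p = 0.0145) and Gm23629 (5.53, adjusted p = 0.0268), which were at 0 in B or T. With populations under 3 read pairs set to 3 pairs they were 0.52, 1.10, 2.54 and 3.01. Without CMP library 1 Gm23057 and Gm22822 did not pass (adjusted p = 0.0825 and 0.0687 by edgeR). Gm26243 did not pass without CLP library 2 (0.0611) or Erythroid library 2 (0.0531), Gm23712 without CLP library 1 (0.0681) or Erythroid library 2 (0.0508), and Gm23057, Gm22822, Gm25583 and Gm23629 in 14, 11, 3 and 7 of 16 fits that left out 1 library.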

How the results depend on the processing

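No alternative reversed a result, and the summed copies of Rnu6 kept direction and side of the threshold in 192 of 193 alternative values; the exception was the stage difference with each population's libraries summed and stages compared 4 against 4, at a log2 value of 0.19 with an edgeR quasi-likelihood adjusted p of 0.775. The number of single intervals called was less stable, and moved by over 1.5 times in 60 of 201 alternative values; the cause was not tested. Against 11 intervals called for stage, 22 for the lymphoid branch, 16 for any population, 16 for T against the rest, 2 for lymphoid minus granulocyte-monocyte and 8 for lymphoid minus megakaryocyte-erythroid, scaling to library totals gave 17 for stage, 35 for the lymphoid branch, 15 for lymphoid minus granulocyte-monocyte and 14 for lymphoid minus megakaryocyte-erythroid. Without the low-count filter stage gave 20. Halving counts to read pairs, which left 21 members tested, gave 6 for stage, 13 for the lymphoid branch, 8 for any population, 7 for T, 1 for lymphoid minus granulocyte-monocyte and 4 for lymphoid minus megakaryocyte-erythroid. Summing intervals of identical sequence, an alternative chosen after seeing the data that left 16 features tested, gave 7, 10, 4 and 6 for stage, the lymphoid branch, any population and T, and 4 for lymphoid minus megakaryocyte-erythroid. Populations summed gave 0 for stage. Leaving out miRNA intervals gave 1 for the megakaryocyte-erythroid branch (lower in the mature population), against 0, and 10 for T, 7 for lymphoid minus granulocyte-monocyte and 14 for lymphoid minus megakaryocyte-erythroid. DESeq2 gave 25 for any population, RLE size factors 10 for T, and leaving out library 1 of GMP, MEP and Erythroid together 5 for lymphoid minus granulocyte-monocyte.

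Leaving out 1 library at a time gave 8 to 17 intervals for stage (17 without T library 1), 8 to 25 for the lymphoid branch (8 without CLP library 1 and 11 without CLP library 2), 0 to 1 for the granulocyte-monocyte branch (1 without Myeloid library 2), 0 for the megakaryocyte-erythroid branch, 4 to 13 for any population (4 without CLP library 1 or CMP library 1), 4 to 14 for T (4 without T library 2, 6 without CLP library 1), 0 to 6 for lymphoid minus granulocyte-monocyte (0 without CLP library 2 or Myeloid library 1, 6 without B library 2 or T library 2) and 2 to 16 for lymphoid minus megakaryocyte-erythroid (2 without either CLP library, 16 without B library 2). The log2 difference of the summed level was 0.88 for stage, 1.92 for the lymphoid branch, 0.12 for the granulocyte-monocyte branch and -1.56 for T on library totals. With only members of at least 100 counts it was 0.54 for stage, 0.032 for the granulocyte-monocyte branch, -1.24 for T and -0.20 for the megakaryocyte-erythroid branch. With RLE factors it was -1.03 for T, and leaving out 1 library gave -1.28 to -1.06. Of 739 alternative values for the 31 named interval results, 586 kept their side of the threshold and 153 lost it, most often without CLP library 1 (15) or CLP library 2 (11).

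The labels number the libraries of each population 1 and 2. Deviations of same-numbered libraries correlated above 0.1 in 8 of 28 population pairs (-0.64 to 0.489), and 8 of 16 libraries correlated best with their own number, so the numbers were not taken as pairing. The largest values were those of GMP with Erythroid (0.489), GMP with MEP (-0.51) and MEP with Erythroid (-0.64). All other pairs lay between -0.18 and 0.18. A factor shared by GMP, Erythroid and MEP, with the MEP numbers reversed, was not tested. A block by number would not fit it. With the replicate number as a block, 10 intervals passed for stage, 19 for the lymphoid branch, 10 for any population, 14 for T, 2 for lymphoid minus granulocyte-monocyte, 6 for lymphoid minus megakaryocyte-erythroid and 0 for both other branches. Depth limits the single intervals: most members lay under the low-count filter.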
